A study of Homo sapiens with 6 samples.

Results

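Tight junctions are the belts that seal neighbouring epithelial cells at their apical border. Claudins are 4-pass membrane proteins that form the strands of the seal and set which ions cross it, occludin (OCLN) is a further membrane protein of the strands, and the zonula occludens proteins, among them ZO-1 and ZO-3 (genes TJP1 and TJP3), are scaffolds that tie the strands to actin. Primed human pluripotent stem cells grow as a flat epithelial sheet and naive cells as domed colonies. The 9 genes described here are the claudins CLDN3, CLDN4, CLDN6, CLDN7, CLDN10 and CLDN12, occludin, TJP1 and TJP3. They were chosen by name from a table of 48183 gene names, in which 12 of 61196 gene identifiers belong to them, and identifiers with the same name were summed.

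The libraries are bulk RNA-seq of human embryonic stem cells carrying EOS-GFP, a fluorescent reporter of the naive state, with 1 line also carrying CA-p38, a constitutively active form of the kinase p38 that doxycycline turns on. The 4 naive libraries are cells induced with VPA (valproic acid, a histone deacetylase inhibitor), with CA-p38, and with AICAR (an activator of the kinase AMPK, 2 libraries, here AICAR 1 and AICAR 2). The 2 primed libraries are the parental lines, primed EOS, from which the VPA and AICAR cells came, and primed CA-p38 EOS, from which the CA-p38 cells came. The sample labels name the line H1 and the text of the study names H9. Per the labels, naive cells were afterwards grown in PXGL medium on mouse embryonic fibroblast feeders, though the study also describes feeder-free PXGL, and were sorted for CD75 and SUSD2, and primed cells were grown in StemFit on Matrigel with no sort described, so culture, feeder, sort and state cannot be told apart.

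Each library held 46823699 to 54277064 counts over genes. The labels were checked on marker genes: the sum of 8 naive markers was 5069 to 5992 CPM (counts scaled to library size with TMM factors) in the naive libraries and 8.51 and 12.3 CPM in the primed ones, and that of 8 primed markers was 77.8 to 101 against 2643 and 3200 CPM. The inductions and the parental lines were separate cultures, the labels do not say so for the AICAR pair, and no induction has more than 2 libraries. The study lists its AICAR cells at 2 successive passages and does not say whether they came from the same induction. The AICAR libraries may therefore not be independent, and the main test counted them as separate libraries. The naive group therefore mixes 3 inductions and the primed group 2 lines, and p-values measure the spread between these libraries only. The AICAR libraries differed from each other by more than sampling noise (chi-square of 21.1 per gene over 24681 genes) and were both kept. In such bulk samples, fewer cells expressing a gene and less RNA per cell cannot be told apart.

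CLDN3 (chromosome 7, 73768997 to 73770270, minus strand) and CLDN4 (chromosome 7, 73799542 to 73832690, plus strand) are neighbours in GRCh38. CLDN12 lies on the same chromosome at 90383721 to 90513402 on the plus strand. The other claudins are CLDN6 on chromosome 16 (3014712 to 3020071, minus strand), CLDN7 on chromosome 17 (7259903 to 7263983, minus strand) and CLDN10 on chromosome 13 (95433604 to 95579759, plus strand). OCLN lies on chromosome 5 (69492292 to 69558104, plus strand), TJP1 on chromosome 15 (29699367 to 29968915, minus strand) and TJP3 on chromosome 19 (3708362 to 3750813, plus strand). The Ensembl canonical transcripts have 1 exon in CLDN3 and CLDN4 and 28 exons in TJP1.

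Promoter windows of 300 bases, from 250 before to 50 after an annotated start in RefSeq (GRCh38.p14), were available for all 9 genes, 16 windows in all. They were searched on both strands for CACCTG, which reads CAGGTG on the other strand, the E-box read by the ZEB and SNAI repressors of epithelial genes. The motif was in 7 of the 16 windows and in 6 of the 9 genes, against 20.6% of 35116 windows and 24.1% of 27305 genes in the same table. The windows of the genes with the largest change in each direction (TJP3, which has 2 starts, and CLDN3) and of the gene with the most motifs (CLDN7, of whose 2 windows the other held 0) are printed here, 5′ to 3′ on the gene's strand, with the motif in capitals.
TJP3 at chr19:3708134-3708433: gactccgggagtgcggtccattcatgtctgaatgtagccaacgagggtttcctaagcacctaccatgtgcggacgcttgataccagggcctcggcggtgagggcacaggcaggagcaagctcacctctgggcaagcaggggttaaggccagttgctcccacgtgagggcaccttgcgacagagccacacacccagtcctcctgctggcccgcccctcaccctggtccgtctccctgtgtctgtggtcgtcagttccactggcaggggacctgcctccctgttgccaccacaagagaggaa
TJP3 at chr19:3721487-3721786: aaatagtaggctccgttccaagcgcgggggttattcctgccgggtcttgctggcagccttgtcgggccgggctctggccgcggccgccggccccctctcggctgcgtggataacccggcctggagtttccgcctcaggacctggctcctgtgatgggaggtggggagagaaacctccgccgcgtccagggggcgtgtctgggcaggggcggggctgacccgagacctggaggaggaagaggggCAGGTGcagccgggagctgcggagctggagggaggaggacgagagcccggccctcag
CLDN3 at chr7:73770221-73770520: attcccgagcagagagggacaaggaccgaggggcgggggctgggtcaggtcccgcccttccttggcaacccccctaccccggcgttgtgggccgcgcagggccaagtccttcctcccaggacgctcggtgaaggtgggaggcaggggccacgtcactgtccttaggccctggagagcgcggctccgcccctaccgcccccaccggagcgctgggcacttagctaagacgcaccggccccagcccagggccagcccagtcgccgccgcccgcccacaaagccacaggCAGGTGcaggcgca
CLDN7 at chr17:7262429-7262728: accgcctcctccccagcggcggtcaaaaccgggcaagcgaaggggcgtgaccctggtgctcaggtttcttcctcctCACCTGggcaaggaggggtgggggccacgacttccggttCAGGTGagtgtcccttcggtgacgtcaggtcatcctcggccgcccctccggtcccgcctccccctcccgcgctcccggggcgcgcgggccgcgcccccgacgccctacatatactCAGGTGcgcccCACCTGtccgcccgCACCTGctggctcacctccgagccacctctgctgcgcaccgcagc
The window at the upstream TJP3 start held no such motif, and that at the downstream start, which lies inside the gene, held 1 that begins 7 bases before the start. In the CLDN7 window 5 motifs began 174, 135, 20 and 9 bases before and 5 bases after the start, where 0.635% of all windows held 3 or more. CLDN3 held 1, beginning 36 bases after its start. OCLN held 1 and 2 motifs in its 2 windows, CLDN6 and 1 of the 4 TJP1 windows held 1 each, and none was in the windows of CLDN4, CLDN10 or CLDN12. Matching letters are a description of the sequence and show no bound factor. The grainyhead motif AACCNGTT was in 0 of the 16 windows and in 1.73% of all windows.

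The study compared cells brought to the naive state by different inductions with the primed cells they came from. Of the 9 genes, 3 rose in naive cells, 5 fell and 1 did not pass the test. TJP3, CLDN7 and OCLN had higher values in all 4 naive libraries than in the 2 primed ones. CLDN3, CLDN10, CLDN12, TJP1 and CLDN6 had lower values in all 4, and CLDN4 overlapped between the groups. The 4 naive libraries were tested against the 2 primed ones by edgeR's quasi-likelihood test over 26497 gene names, with a threshold of 0.05 on the Benjamini-Hochberg adjusted p. Many genes passed it: 53.1% of those tested, with 26% of all genes higher and 27% lower, and the groups did not overlap in 64.9%, against 8 of the 9 genes by either measure. The 9 genes were chosen with earlier results of these data known, so these shares are not a test of the set. The median log2 fold change of the 9 genes was -0.69 and that of all genes tested was 0.11.

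**Figure D1:**
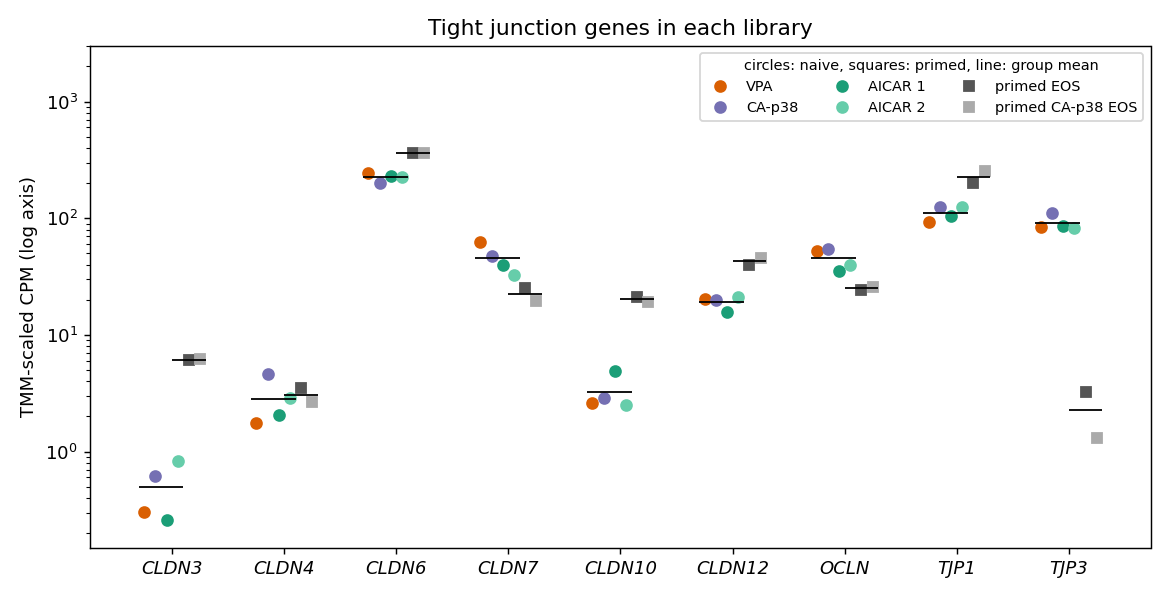
TMM-scaled CPM of the 9 genes (log axis) in the 4 naive libraries (circles) and the 2 primed libraries (squares), with a line at each group mean. TJP3 lies at 82.4 CPM or more in naive libraries and at 3.23 CPM or less in primed ones, and CLDN4 is the gene whose groups overlap.

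TJP3 encodes ZO-3, the scaffold most restricted to epithelia among the zonula occludens proteins. It stood at 83.7 CPM in VPA, 110 in CA-p38, 85.1 in AICAR 1 and 82.4 in AICAR 2, while primed EOS was at 3.23 CPM and primed CA-p38 EOS at 1.31 CPM. CA-p38 was the highest and the other naive libraries lay close together, with both primed libraries far below all 4. The gene was 39.7-fold higher in naive cells, a log2 fold change of 5.31 (SE 0.31, adjusted p = 1.5e-08, edgeR's quasi-likelihood test, Benjamini-Hochberg adjustment). The primed values rest on 160 and 64 counts, and without primed EOS the log2 fold change was 6.10. An opposite-strand neighbour, APBA3, shares 42 bases with TJP3 and held 950 to 1244 counts in naive and 700 and 854 in primed libraries.

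TJP1, the gene of the widely expressed scaffold ZO-1, moved the other way. Its level was 93.5 CPM in VPA, 125 in CA-p38, 105 in AICAR 1 and 124 in AICAR 2, and primed EOS stood at 200 with primed CA-p38 EOS at 253. No naive library reached the lower primed one. The fold was 2.03 lower, with a log2 fold change of -1.02 (SE 0.13, edgeR's quasi-likelihood test, Benjamini-Hochberg adjusted p = 3.05e-05).

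Levels of different genes were compared per kilobase of canonical transcript. Per kb, TJP3 was at 27.2 CPM in VPA, 35.9 in CA-p38, 27.7 in AICAR 1 and 26.8 in AICAR 2, and at 1.05 and 0.425 in the primed libraries. TJP1 was at 13.0, 17.3, 14.6 and 17.3 CPM per kb in the naive libraries in the same order, and at 27.8 and 35.2 in the primed ones. In naive libraries the TJP3 level was 1.55 to 2.09 times that of TJP1, whereas TJP1 was 26.5 and 82.6 times as high as TJP3 in the primed ones. Per kb, the order of these scaffold genes was thus opposite in the states, in each of the 6 libraries. This order depends on the canonical lengths used, 7190 bases for TJP1 and 3076 for TJP3. In CPM not divided by length, TJP1 was above TJP3 in all 6 libraries (naive means 112 and 90.4 CPM). Which transcripts of each gene were present was not measured.

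**Figure D2:**
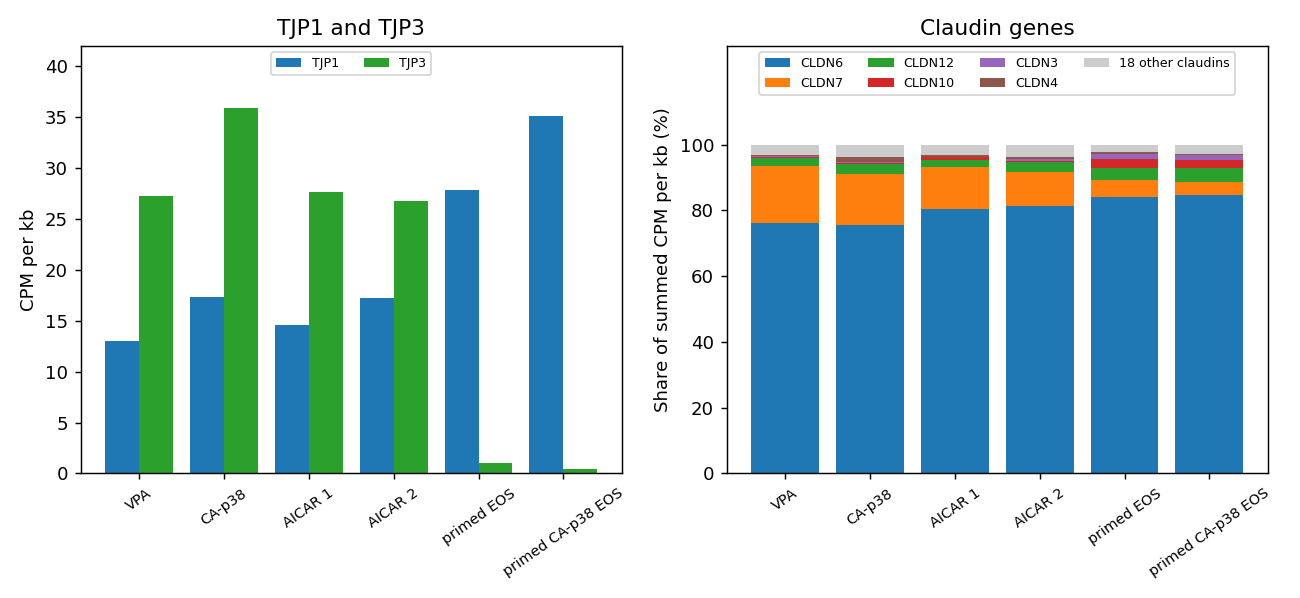
Level of TJP1 and TJP3 (left, CPM per kb of canonical transcript) and share (%) of each claudin in the summed CPM per kb of 24 claudin genes (right), in each of the 6 libraries. TJP3 stands above TJP1 in the 4 naive libraries and below it in the 2 primed ones, and CLDN6 takes 75.5% or more of the claudins in all 6.

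CLDN6, a claudin typical of embryonic epithelia, was the most abundant claudin in every library. It stood at 244 CPM in VPA, 202 in CA-p38, 229 in AICAR 1 and 226 in AICAR 2, and at 363 and 365 CPM in the primed lines. The primed libraries were almost level with each other and above all naive ones. Its log2 fold change was -0.69 (SE 0.10, edgeR's quasi-likelihood test, Benjamini-Hochberg adjusted p = 5.31e-05), 1.62-fold lower. Per kb it made up 75.5% to 81.3% of the summed level of 24 claudins in naive and 84.0% and 84.7% in primed libraries. The summed claudin level itself was 196 to 234 CPM per kb in naive and 316 and 315 in primed libraries. CLDN6 overlaps the opposite-strand gene TNFRSF12A by 1627 bases, which held 673 to 868 counts in naive and 1346 and 1744 in primed libraries, beside at least 10211 counts of CLDN6.

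CLDN7, a basolateral claudin that binds EPCAM, was the only claudin of the set that rose. Its values were 62.0 CPM in VPA, 47.2 in CA-p38, 40.0 in AICAR 1 and 32.9 in AICAR 2, whereas primed EOS had 25.3 and primed CA-p38 EOS had 19.5. All naive libraries exceeded both primed ones, although AICAR 2 lay nearer to primed EOS than to VPA. The log2 fold change was 1.02 (SE 0.22, edgeR's quasi-likelihood test, Benjamini-Hochberg adjusted p = 0.00174). CLDN7 made up 10.5% to 17.2% of the claudin level per kb in naive libraries and 5.18% and 4.01% in primed ones. A second identifier carried 49.7% of its counts, with a share of 47.8% to 51.2% in each library, and ELP5 overlaps it by 38 bases on the opposite strand. A protein-coding gene without a symbol, ENSG00000262302, shares 2187 bases with its span on the same strand and held 17 to 43 counts in naive and 15 and 9 in primed libraries.

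Among the 9 genes the largest relative losses were in CLDN3 and CLDN10. CLDN3, a sealing claudin, was at 0.31 CPM in VPA, 0.61 in CA-p38, 0.26 in AICAR 1 and 0.83 in AICAR 2, which are 14 to 41 counts, and at 6.14 and 6.15 CPM in the primed libraries. Every naive library was below 1 CPM, and the primed libraries differed by less than the naive ones did. Its log2 fold change was -3.62 (SE 0.40, edgeR's quasi-likelihood test, Benjamini-Hochberg adjusted p = 6.12e-06), 12.3-fold lower. CLDN10, whose protein forms ion-selective pores, was at 2.60 CPM in VPA, 2.87 in CA-p38, 4.88 in AICAR 1 and 2.52 in AICAR 2, whereas the primed EOS value was 21.1 and the primed CA-p38 EOS value 19.1. AICAR 1 stood above the other naive libraries but far below the primed ones. The fold was 6.25 lower (log2 fold change -2.64, SE 0.25, edgeR's quasi-likelihood test, Benjamini-Hochberg adjusted p = 1.78e-06). Its antisense gene CLDN10-AS1 held at most 2 counts in any library, and DZIP1, which overlaps it by 1558 bases on the other strand, held 1002 to 1344 counts in naive and 3362 and 3412 in primed libraries.

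CLDN12, an atypical claudin, stood at 20.2 CPM in VPA, 19.95 in CA-p38, 15.7 in AICAR 1 and 21.0 in AICAR 2, and primed EOS had 39.9 with primed CA-p38 EOS at 45.8. The groups were well apart, and the log2 fold change was -1.16 (SE 0.15, edgeR's quasi-likelihood test, Benjamini-Hochberg adjusted p = 2.02e-05). Its annotated span overlaps 7733 bases of GTPBP10 and 46979 bases of CDK14, both on the same strand. CDK14 was at 147 to 239 counts in naive libraries and at 3361 and 3524 in primed ones, and its part in the CLDN12 counts was not tested.

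OCLN, the occludin gene, was at 52.6 CPM in VPA, 54.5 in CA-p38, 35.5 in AICAR 1 and 39.6 in AICAR 2, whereas primed EOS was at 24.5 and primed CA-p38 EOS at 25.5. The AICAR libraries lay between the other naive libraries and the primed ones. The log2 fold change was 0.87 (SE 0.18, edgeR's quasi-likelihood test, Benjamini-Hochberg adjusted p = 0.00121), 1.82-fold higher. Its pseudogene OCLNP1 held 27 to 58 counts, beside at least 1211 counts of OCLN. Second identifiers carried 38.3% of the counts of OCLN and 38.2% of those of TJP1.

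CLDN4, a sealing claudin often studied beside CLDN3, was the gene that did not pass. It was at 1.76 CPM in VPA, 4.65 in CA-p38, 2.06 in AICAR 1 and 2.88 in AICAR 2, with primed EOS at 3.48 and primed CA-p38 EOS at 2.66. CA-p38 was the highest of the 6 libraries and VPA the lowest. The log2 fold change was -0.11 (SE 0.38, edgeR's quasi-likelihood test, Benjamini-Hochberg adjusted p = 0.819), and its sign turned without VPA (0.046), without AICAR 1 (0.0012) or without primed EOS (0.081).

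The order of the genes per kb differed between the states. In naive libraries CLDN6 was highest at 165 CPM per kb (SD 12.7, n = 4), followed by CLDN7 at 29.5 (SD 8.08) and TJP3 at 29.4 (SD 4.36). CLDN7 and TJP3 overlapped in range. TJP1 came next at 15.5 (SD 2.13), then OCLN at 7.37 (SD 1.52) and CLDN12 at 5.44 (SD 0.678), whose ranges also overlapped. CLDN4 at 1.67 (SD 0.766) and CLDN10 at 1.30 (SD 0.453) overlapped too, and CLDN3 was lowest at 0.393 (SD 0.210).

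In the primed libraries the means ran from CLDN6 at 266 CPM per kb through TJP1 at 31.5, CLDN7 at 14.5, CLDN12 at 12.1, CLDN10 at 8.16, CLDN3 at 4.83, OCLN at 4.04 and CLDN4 at 1.81 down to TJP3 at 0.738. With 2 libraries, CLDN7 and CLDN12 overlapped and the other neighbours did not. TJP3 thus held the lowest place among the 9 genes in primed cells and, by mean, the third in naive cells, next to CLDN7. By library, TJP3 was above CLDN7 in CA-p38, AICAR 1 and AICAR 2, and below it in VPA. CLDN3 and CLDN10 took the last places in naive cells by mean. CLDN4 was below CLDN10 in VPA (1.04 against 1.05 CPM per kb) and AICAR 1 (1.22 against 1.98), and above it in CA-p38 and AICAR 2.

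Each naive library was also set against the primed library of its own line, as a description without a test, since there is 1 primed library per line. The VPA, AICAR 1 and AICAR 2 values share primed EOS as their reference. TJP3 was 25.9-fold higher in VPA (95% exact interval 22.1 to 30.5, counting error only), 84.4-fold in CA-p38 (66.0 to 110), 26.3-fold in AICAR 1 (22.5 to 31.0) and 25.5-fold in AICAR 2 (21.8 to 30.0). CA-p38 stood apart, with the highest naive value over the lower primed value.

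Over the primed library of the line, CLDN7 and OCLN divided the inductions in a similar way. CLDN7 was 2.45-fold higher in VPA and 2.42-fold in CA-p38, but 1.58-fold in AICAR 1 and 1.30-fold in AICAR 2. The OCLN folds were 2.15, 2.13, 1.45 and 1.62 in the same order. With both primed libraries as the reference, VPA and CA-p38 were less alike for CLDN7. Its log2 folds were then 1.47 in VPA, 1.08 in CA-p38, 0.84 in AICAR 1 and 0.55 in AICAR 2. In both genes the AICAR libraries gave the smaller folds, and since each other induction is a single library, no test of this difference was made. For CLDN4 the folds over the primed library of the line were 0.506 in VPA, 1.75 in CA-p38, 0.593 in AICAR 1 and 0.828 in AICAR 2. The interval of the last (0.659 to 1.04) was the only 1 of 36 that held no change.

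Among the genes that fell, CLDN3 was 20.1-fold lower in VPA, 10.03-fold in CA-p38, 23.8-fold in AICAR 1 and 7.44-fold in AICAR 2. The CLDN10 folds were 8.14, 6.66, 4.33 and 8.40 lower, so the AICAR libraries differed from each other in opposite senses for these genes. CLDN12 fell by 1.90 to 2.54 times, TJP1 by 1.61 to 2.14 times and CLDN6 by 1.49 to 1.80 times. Of the 36 values, 20 were at least 2-fold in either direction.

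**Figure D3:**
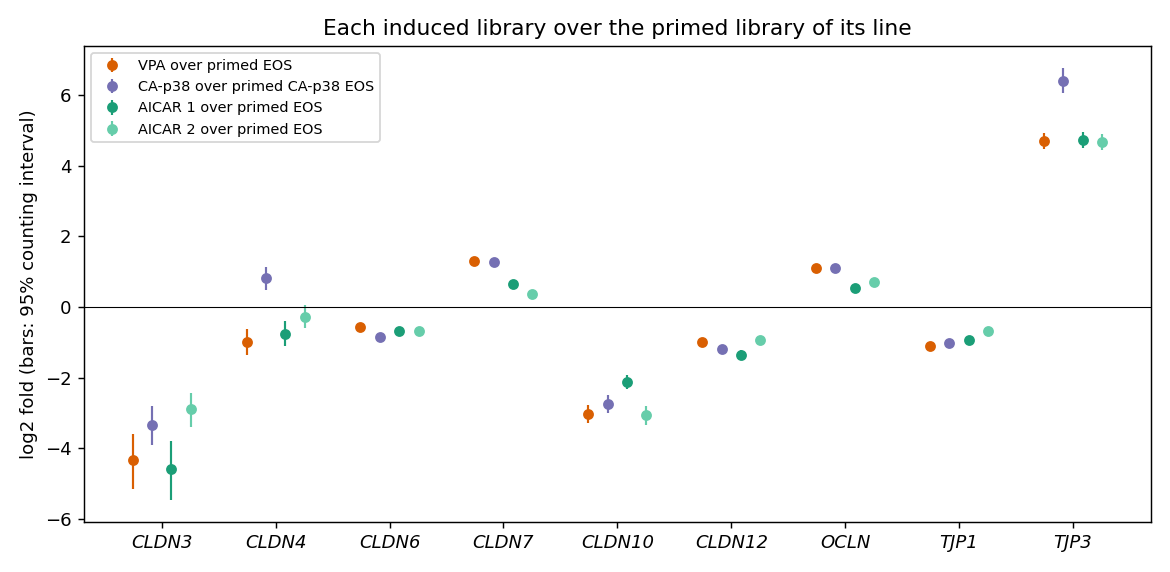
The log2 fold of each gene in each induced library over the primed library of its line, with 95% exact intervals of the counts (counting error only). TJP3 stands at 4.67 to 4.72 in the EOS-line libraries and at 6.40 in CA-p38, and CLDN4 has points on both sides of 0.

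Whether the change from primed to naive differed between the CA-p38 EOS line and the EOS line was tested with an interaction term in edgeR's quasi-likelihood test. The call rate over all genes was 0.00377%, 1 gene of 26497, and 0 of the 9 genes passed. TJP3 had the smallest p of the set: its change was larger by 1.70 on the log2 scale in the CA-p38 EOS line (Benjamini-Hochberg adjusted p = 0.316, edgeR). It was the 1 gene of the set at an unadjusted p under 0.05, and by limma-voom 0 passed and 2 were under that level. Without the VPA library the spread rested on the AICAR pair alone. TJP3 then passed, with a change larger by 1.71 on the log2 scale in the CA-p38 EOS line. More genes also passed over the whole table than in the fit of all 6 libraries. Both primed arms and the CA-p38 naive arm are single libraries, so all spread in this fit came from the 3 naive libraries of the EOS line, VPA and the AICAR pair, and the single libraries were assumed to vary like them. On simulated data this test recovered 60% of 4-fold and 7% of 2-fold differences.

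Other genes of the tight junction were counted in 4 lists. Of 68 genes, 61 were tested, 18 rose, 23 fell and 20 did not pass, with a median log2 fold change of -0.077, so the share that passed was 41 of 61 where it was 53.1% of all genes tested. The groups did not overlap in 45 of the 61 tested, where they did not in 64.9% of all genes tested. Beside the counts of each list below, 26% of all genes tested were higher and 27% lower in naive libraries.

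Of 18 other claudins, 11 had enough counts to be tested, and 3 of these passed, named here after their values were seen. CLDN1, a sealing claudin of skin, was at 0.15 to 0.42 CPM in naive and 1.58 and 3.50 in primed libraries (log2 fold change -3.24). CLDN19 fell by 1.83 on the log2 scale, from 5.34 and 3.82 CPM to at most 1.76 CPM. CLDN15 rose by 0.75, from 1.64 and 1.76 CPM to at least 2.43 CPM. CLDN14 and CLDN17 had 0 counts in every library, which allows up to 0.0613 CPM in the library with the smallest TMM-scaled size (3 counts, counting error only). The other claudins had a median log2 fold change of 0.081.

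Of 10 other membrane proteins of tight junctions, 3 rose, 4 fell and 3 did not pass (median log2 fold change 0.063). F11R, which encodes the adhesion molecule JAM-A, had the largest rise among them. It stood at 504 CPM in VPA, 483 in CA-p38, 504 in AICAR 1 and 437 in AICAR 2, and at 135 in both primed ones, with a log2 fold change of 1.84 (SE 0.10, edgeR's quasi-likelihood test, Benjamini-Hochberg adjusted p = 1.23e-08). MARVELD2, the gene of tricellulin, which seals corners where cells meet, was at 22.1 to 28.9 CPM against 21.4 and 21.6, with a log2 fold change of 0.28 and an adjusted p of 0.139.

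The 24 plaque and polarity genes included 5 that rose, 13 that fell and 6 that did not pass, with a median log2 fold change of -0.51. CGN, the gene of the ZO-binding protein cingulin, rose from 49.4 and 44.7 CPM to 66.4 to 82.1 CPM (log2 fold change 0.66, SE 0.12). The scaffolds MAGI1 and MAGI2 fell by 2.92 and 2.05 on the log2 scale, MAGI1 from 97.2 and 129 CPM to 13.0 to 16.3. The angiomotins AMOT and AMOTL1, which join junctions to Hippo signalling, fell by 3.22 and 4.44. AMOTL1 was at 6.69 to 11.1 CPM in naive and 156 and 217 CPM in primed libraries, 21.6-fold lower.

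Among 16 partners and regulators, 9 rose, 4 fell and 3 did not pass, with a median log2 fold change of 1.22. EPCAM, the adhesion protein that stabilises CLDN7, fell by 1.17 on the log2 scale, from 325 and 410 CPM to 151 to 177, whereas CLDN7 rose. GRHL1, a grainyhead transcription factor of epithelia, rose by 2.13 (20.1 to 26.3 against 4.63 and 5.60 CPM). The other grainyhead genes are named outside the rule, with their values known. GRHL2 fell by 0.83 (3.32 to 9.50 against 13.0 and 13.2 CPM), and GRHL3 rose by 1.28 (1.76 to 3.79 against 1.07 and 1.08 CPM). The repressors of mesenchymal genes OVOL1 and OVOL2 rose by 3.32 and 2.67. ZEB1, which represses epithelial genes through the E-box printed above, was below the level set for naming and is given after its values were seen. It was at 0.09 to 0.32 CPM in naive and at 13.4 and 15.2 CPM in primed ones, with a log2 fold change of -6.19 (SE 0.35, edgeR's quasi-likelihood test, Benjamini-Hochberg adjusted p = 1.11e-08). Genes of other factors that read that motif were also named outside the rule, with their values known: SNAI1 rose by 1.36, SNAI2 fell by 3.93 at levels of 0.18 CPM or less in naive cells, and ZEB2 did not pass (log2 fold change -0.20).

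**Figure D4:**
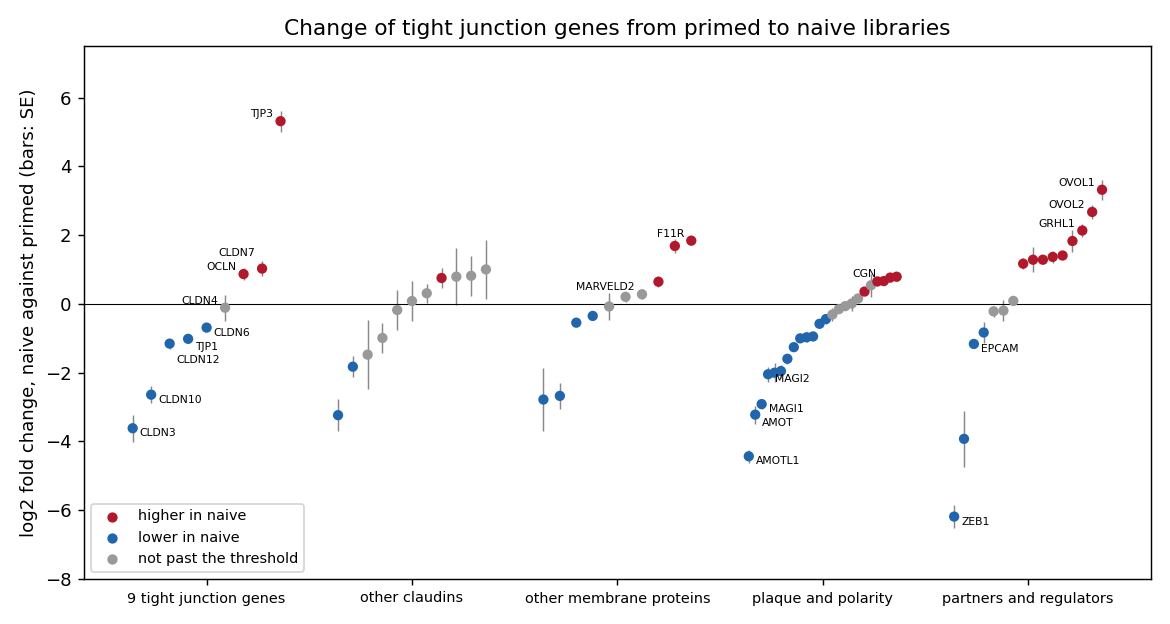
Log2 fold change of naive against primed libraries (bars: SE) for the 9 genes and the tested genes of the 4 lists, ordered within each list, with genes that rose in red, genes that fell in blue and genes that did not pass in grey. TJP3 (5.31) is the highest point and ZEB1 (-6.19) the lowest.

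Some marker genes of other cell types moved with the states and others did not, where 53.1% of all genes tested passed the threshold. The sum of 8 trophectoderm markers was 17.8 to 19.1 CPM in naive and 5.46 and 5.91 CPM in primed libraries. Of these, 4 rose, CDX2 was at 1.18 to 2.45 CPM in naive libraries, and VGLL1 and TP63 were at or near 0 throughout. The sum of 8 fibroblast markers was 30.9 to 72.9 against 191 and 210 CPM, with 4 that fell, and FAP was at 0.04 CPM or less. COL3A1 (mean 8.09 in naive against 3.47 CPM in primed libraries), DCN (0.99 against 0.54) and LUM (0.37 against 0.08) were higher by mean and did not pass. COL3A1 was at 16.6 CPM and LUM at 1.17 CPM in CA-p38. The 8 hypoblast and endoderm markers summed to 13.6 to 18.8 CPM in naive libraries and to 9.54 and 33.7 in primed ones, with 1 higher and 4 lower: GATA4 was at 7.53 to 13.5 CPM against 0 and 0.94, while FOXA2 was at 1.19 CPM or less against 5.36 and 21.4. The 6 neural markers summed to 156 to 196 against 120 and 138 CPM, with 2 higher and 1 lower. TUBB3 made up most of that sum, at 153 to 195 against 113 and 131 CPM, and MAP2 was at 0.08 CPM or less against 5.92 and 6.05 CPM. The CD75 and SUSD2 gate on the naive cells would remove cells, feeders among them, that lack these surface markers, and any part of such cells in the tight junction values was not tested.

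For each of the 9 genes, the gene with the most similar profile over the 6 libraries was found among 12603 genes that averaged 5 CPM or more, by the root mean square difference of log2 CPM centred on each gene's mean. TJP3 was nearest to ULBP1 (difference 0.18, with ULBP1 at a mean of 26.5 CPM in naive and 0.537 in primed libraries). CLDN6 had the closest match, CDK9 (0.028), followed by TJP1 with BPTF (0.038) and CLDN12 with the pseudogene ACTBP2 (0.052). OCLN was nearest to MAP4K3-DT (0.073), CLDN7 to RGL3 (0.10), CLDN10 to PGBD5 (0.19), CLDN4 to FAM228B (0.23) and CLDN3 to IGDCC4 (0.25). Within the set, CLDN12 and TJP1 were closest to each other (0.18), CLDN7 and OCLN formed another close pair (0.23), and TJP3 was far from every other gene of the set (2.13 from CLDN7, the nearest).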

How the data were processed

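Bulk RNA-seq of 6 libraries was used. The deposited values are whole-number counts per Ensembl gene identifier, without normalization. Per the study's methods, the authors trimmed adapters (cutadapt 1.15 and Trim Galore 0.4.4 in the submitters' processing notes), mapped reads with Bowtie2 to Ensembl GRCh38 cDNA and noncoding RNA, and summed the alignments per gene. A gene with a copy on an alternative sequence has several identifiers, among which reads could be split, so identifiers with the same name were summed. Left unused were 23 columns from other studies and 26 spike-in rows with at most 1 count.

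The states were compared by edgeR 4.0.16 under R 4.3.3 (quasi-likelihood test, TMM factors of 0.936 to 1.06, filterByExpr by state, no covariate), and 21686 names with low counts were not tested. Common dispersion was 0.0563. On simulated data with 200 changed genes this fit recovered 95% of 4-fold and 60% of 2-fold changes, with 16 false calls among 25572 genes tested. In the data 53.1% of genes passed, a far larger share than was changed in the simulation, so these rates need not hold there. Lengths and positions came from GENCODE release 44 (GRCh38), in which the second identifiers of CLDN7, OCLN and TJP1 were not found. Figures were drawn with matplotlib 3.10.9. Alternatives covered scaling, DESeq2 1.42.0, limma-voom (limma 3.58.1), filters, identifiers, parental line, summed AICAR libraries and each library left out.

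Genes named from the lists passed the threshold, averaged 5 CPM or more and had a log2 fold change of at least 2 either way, with MARVELD2, F11R, CGN and EPCAM always named, and genes named outside this rule are marked as such. A gene of the plaque list is not reported here. The 9 genes, lists and rules were chosen with earlier results of these data known.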

Additional observations from a re-analysis of the deposited data

Results flagged for a closer look

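In the group of 4 naive libraries, 1 library lay far from the other 3 for 2 of the 9 genes: its gap to the nearest library as a share of the group's range exceeded Dixon's 95% critical value for 4 samples, which chance gives in about 1 of 20 groups. CLDN10 was at 4.88 CPM in AICAR 1, against 2.52 to 2.87 CPM in the other naive libraries. TJP3 was at 110 CPM in CA-p38, against 82.4 to 85.1 CPM in the others.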

How the results depend on the processing

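Under the 15 alternatives to the comparison of naive and primed libraries, 8 of the 9 genes passed each time, 3 higher and 5 lower, and the number of other tight junction genes that passed was 35 to 41. The log2 fold changes ran from 4.81 to 6.10 for TJP3 and from -3.96 to -3.41 for CLDN3, and CLDN4 did not pass under any alternative (adjusted p 0.264 to 0.998 over edgeR, DESeq2 and limma-voom). The CLDN4 log2 fold change was -0.47 to 0.081 with 1 library left out, changing sign without VPA, AICAR 1 or primed EOS. The interaction with parental line was passed by 0 to 1 of the 9 genes with 1 library left out, and the 1 was TJP3 without VPA, where the AICAR pair alone gave the spread. Scaling moved the median log2 fold change over the 26497 names from 0.11 (TMM) to 0.057 (median ratio) or 0.20 (library totals). Of 108 alternative values of folds over the parental library, 29 moved beyond the counting interval. Parental line as a covariate, which ties each naive library to the primed library of its line, was among the 15 alternatives and changed no call of the 9 genes. Replicate numbers follow accession order and were not used to pair libraries. The depth limits CLDN3, at 14 to 41 counts in naive libraries, and TJP3, at 64 and 160 counts in primed ones.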
